A study of Homo sapiens with 33 samples.

Results

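H28 is a palbociclib-sensitive line of malignant pleural mesothelioma (MPM) cells, and its transcriptome without drug was compared with those of the other 3 sensitive MPM lines of the series, H2052, H2452 and MSTO-211H. The members were the 11 libraries of these lines from cells kept in 0.1% DMSO for 9 or 10 days, of 33 libraries in all. There were 3 libraries of H28, 2 of H2052, 3 of H2452 and 3 of MSTO-211H. The labels give the cell line as NCI-H28 and the cell type as MPM cells. All 4 are established human lines from a commercial collection, grown in RPMI-1640 with serum, so that H28 stands for 1 tumour-derived line and a difference between lines cannot be read as a difference between tumour classes. Replicates of a line are independent experiments per the study's methods. Palbociclib inhibits the cell cycle kinases CDK4 and CDK6, and was given to sister cultures at 1 µM. The other lines of the series, MPP89, an MPM line, and MeT-5A, an immortalized mesothelial line, are resistant to the drug and were used here for levels alone.

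Mesothelial cells line the pleura, are of mesodermal origin and express both keratins and vimentin. MPM arises from them and is known for loss of CDKN2A and CDKN2B, which encode inhibitors of CDK4 and CDK6, and for inactivation of the tumour suppressors BAP1, NF2 and LATS2. In tumours of sarcomatoid growth, mesothelial and epithelial markers are often reduced.

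RNA-seq values are CP20M, which are reads per gene scaled by the authors to 20000000 per library and rounded up to whole numbers, so that 0 means that no read was counted. A gene was called when log2(CP20M + 10) differed between H28 and another line by more than 1.5-fold at a false discovery rate (FDR) under 0.05 (limma, Benjamini-Hochberg adjustment over the 16288 genes tested). A gene was set apart when it was called against each of the 3 lines in the same direction. Its gap is the log2 difference to the nearest of the 3 lines, and because of the added 10 it understates the change of genes near 0. Depth could be estimated for 6 of the 11 libraries and lay between 14750000 and 17430000 reads. H28 libraries resembled each other (Pearson r across genes of at least 0.979) more than they resembled other lines (0.662 to 0.743), and the other lines had r of 0.759 to 0.809 with each other. These correlations are across genes, which are not independent replicates. Replicate 3 of H28, a 10-day culture, held low values where its sister libraries held almost none. Of the 10 genes at 1000 CP20M or more in all 8 other libraries and at no more than 3 in H28 replicates 1 and 2, all 10 were above 3 in replicate 3, at 5 to 84 CP20M. Their median was 0.481% of the level in the other lines. The part of these low values in the results was not tested.

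H28 differed from every other sensitive line at 3505 genes (21.5% of those tested). There were 1680 genes that were higher (10.3%) and 1825 that were lower (11.2%) in H28 than in each of the other lines. Among them were 1282 higher and 1507 lower protein-coding genes. Against single lines, 4406 genes were called higher and 4719 lower than in H2052 (27.1% and 29.0%), 4441 and 4266 relative to H2452 (27.3% and 26.2%), and 3829 and 4805 relative to MSTO-211H (23.5% and 29.5%). These 3 comparisons share the H28 libraries. The 3 H28 libraries did not overlap with the other 8 at 1626 of the higher (9.98% of tested genes) and 1770 of the lower genes (10.9%). The median gap was 1.18 for the higher and -1.23 for the lower genes. A gap of more than 5 log2 units was found for 58 higher and 58 lower genes. When each other line took the place of H28, 1346 higher and 1122 lower genes were set apart for H2052, 1073 and 1491 for H2452, and 1373 and 897 for MSTO-211H, each time fewer than for H28. Without H28 replicate 3, there were 1575 higher and 1802 lower genes.

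The 15 higher genes with the largest gaps had gaps between 9.95 for HAVCR1 and 7.23 for PREX2. HAVCR1, a phosphatidylserine receptor known from injured kidney tubules (ENSG00000113249, chromosome 5 from 157026742 to 157069396 of GRCh38), had 10167, 13332 and 10164 CP20M in H28. In the other lines it was at 0 in 6 of the 8 libraries and at 2 in the others. The gap was 9.95 ± 0.173 (SE, adjusted p = 8.97e-11), and the groups were far apart. SALL1, a zinc finger factor of kidney development, had 2007, 2349 and 2391 CP20M, and was listed at 0 in all 8 other libraries. FXYD2, the gamma subunit of the sodium pump, had 4264, 7109 and 6179 CP20M against 0 to 10. The readthrough gene FXYD6-FXYD2 and the lncRNA AP000757.2 overlap the same locus on chromosome 11, so that their reads may not be separate measurements.

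VCAN, the large chondroitin sulfate proteoglycan versican, had the highest level of the 15 genes, with 48072, 59558 and 56443 CP20M in H28. Its levels elsewhere were uneven, with 1281 CP20M in replicate 2 of H2452 and at most 164 in the remaining libraries. The gap was 8.47 ± 0.973 (adjusted p = 1.67e-05). ALDH1A1, which oxidizes retinal to retinoic acid, varied among the H28 libraries themselves at 7315, 17655 and 3339 CP20M, and was at 0 to 17 elsewhere (gap 8.22 ± 0.506, adjusted p = 1.34e-07). KCNJ15, an inwardly rectifying potassium channel, had 935 and 997 CP20M in H28 replicates 1 and 2 and 4514 in replicate 3, still far above the at most 2 elsewhere. Other genes of the 15 were KIF12, a kinesin, NEFL, the neurofilament light chain, PGBD5, a transposase-derived gene, LAD1, a basement membrane filament protein, MACROD2, a mono-ADP-ribosylhydrolase, and VAV3 and PREX2, both exchange factors of small GTPases. Their gaps lay between 7.23 for PREX2 and 8.01 for KIF12, and PREX2 was listed at 0 in all 8 other libraries. VCAN-AS1, a lncRNA antisense to VCAN, had 3205, 4356 and 3821 CP20M. Libraries were directional, but the strand setting used in counting is not given in the sources used here, so that reads of VCAN and VCAN-AS1 may have been shared.

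**Figure D1:**
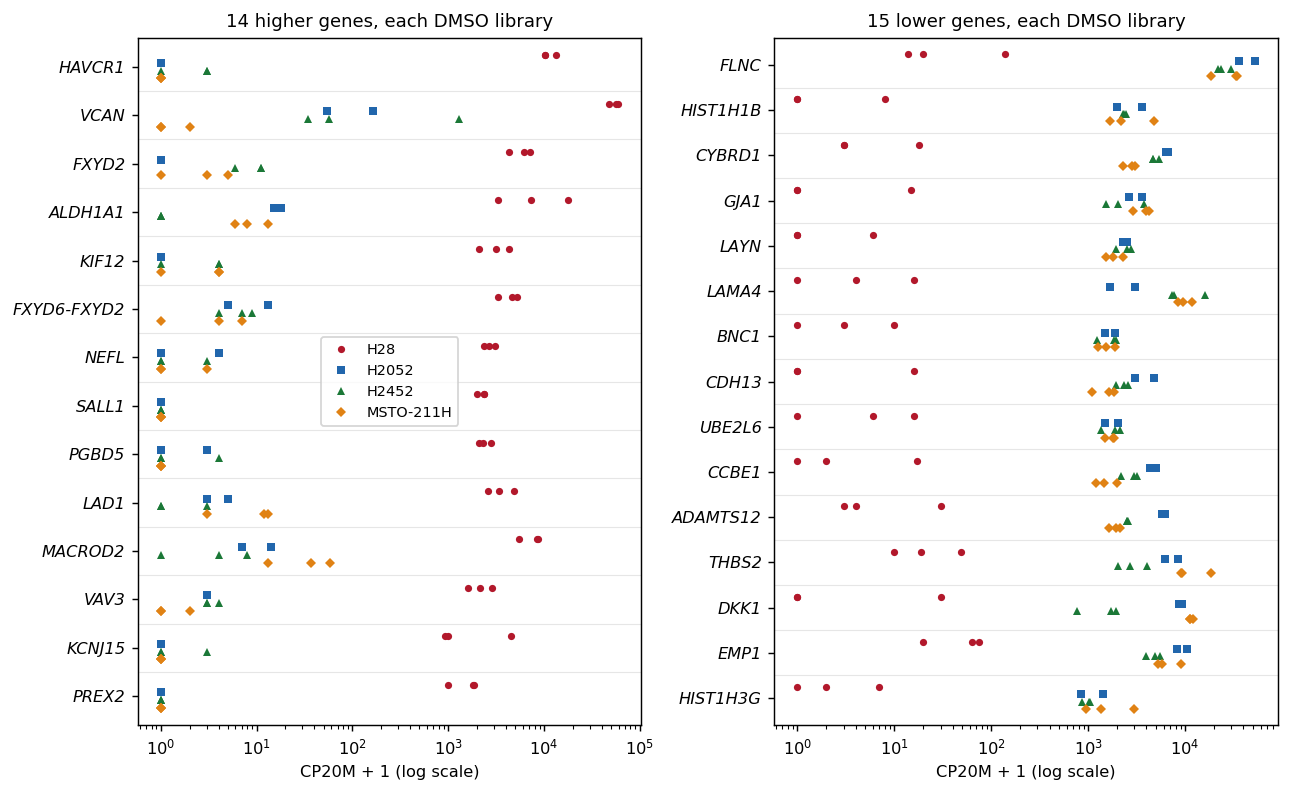
CP20M + 1 (log axis) of 14 of the 15 higher and of the 15 lower protein-coding genes with the largest gaps, with 1 point for each DMSO library and a colour and shape for each line. The H28 points lie apart from all 8 points of the other lines in each row, which the choice of these genes required.

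The 15 lower genes with the largest gaps had gaps between -9.07 for FLNC and -6.35 for HIST1H3G. FLNC, the actin crosslinker filamin C (ENSG00000128591, chromosome 7 from 128830406 to 128859274), had 13, 19 and 137 CP20M in H28. In the other 8 libraries it was among the abundant transcripts, at 18566 to 52188 CP20M, and the gap was -9.07 ± 0.558 (adjusted p = 1.15e-07). Its antisense lncRNA FLNC-AS1 was also lower, with 4, 5 and 12 CP20M in H28 and 803 to 2404 elsewhere. GJA1, the gap junction protein connexin 43, was at 0, 0 and 14 CP20M in H28 and at 1518 to 4225 elsewhere (gap -7.41 ± 0.377, adjusted p = 2.65e-08). CYBRD1, a duodenal type ferric reductase, was at 2, 2 and 17 CP20M against 2271 to 6599. Among matrix genes, LAMA4, a laminin chain, was at 0, 3 and 15 CP20M against 1661 to 16145, and the thrombospondin THBS2 was at 9, 18 and 48 against 2009 to 18408. CCBE1, a secreted factor of lymphatic growth, and the metalloprotease ADAMTS12 had at most 29 CP20M in H28 and at least 1207 elsewhere. LAYN, a hyaluronan receptor, CDH13, a cadherin without a cytoplasmic tail, EMP1, a tetraspan membrane protein, and UBE2L6, the conjugating enzyme for ISG15, had gaps between -7.34 and -6.41. DKK1, a secreted WNT antagonist, was at 0, 0 and 29 CP20M in H28. Its other levels spanned 759 to 12046 CP20M, with H2452 lowest, and the gap was -6.44 ± 0.477 (adjusted p = 4.97e-07). The lncRNA MIR100HG was the other leading gene outside protein-coding genes, with a gap of -5.73. In MPP89 and MeT-5A control libraries, FLNC was at 7315 to 19496 CP20M and GJA1 at 786 to 4211, whereas EMP1 was at 56 and 73 in MeT-5A, within the H28 range.

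The label of MPM cells was compared with marker genes. Of the 10 mesothelial markers, 6 were at 10 CP20M or below in all H28 libraries, and 1 was so in all 8 other libraries. The summed level of the 10 was 557 to 1940 CP20M in H28 and 2185 to 8216 in the other 8 libraries. MSLN, mesothelin, was at 1, 3 and 9 CP20M in H28, while the other libraries had a lowest value of 449, a median of 1044 and a highest value of 4999. The gap was -5.51 ± 0.285 (adjusted p = 2.75e-08). BNC1, basonuclin 1, was at 0, 2 and 9 CP20M against 1221 to 1959. CALB2, calretinin, was low throughout, with at most 2 CP20M in H28 and 10 to 117 elsewhere, and its gap was -1.68 ± 0.524 (adjusted p = 0.0152). THBD, thrombomodulin, was at 0, 3 and 6 CP20M in H28 and at 66 to 1198 elsewhere. WT1, the transcription factor used to identify mesothelial cells, was present in H28, with 172, 107 and 330 CP20M beside 242 to 591, and was not set apart. UPK1B, UPK3B and LRRN4 were also detected in H28, at up to 1002, 134 and 524 CP20M. PDPN, podoplanin, was at 0, 0 and 4 CP20M in H28. In the other libraries it ranged from 0 to at least 100 CP20M, the level needed for testing. The data thus go against the label in MSLN and BNC1, and in CALB2, which was low in all 4 lines. They do not in WT1, UPK1B, UPK3B and LRRN4, which were detected and not set apart. PDPN, ITLN1 and KRT5 were at 10 CP20M or below in H28 and are in neither group. PDPN was not set apart, and ITLN1 and KRT5 were not tested. The line is called H28 throughout. Markers of leukocytes summed to 4 to 13 CP20M, of endothelium to 8 to 13 and of erythroid cells to 0 to 1 in H28, and CD3E was at 0 in all 3 libraries.

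Of 13 genes of the list of mesothelial identity, 10 were tested, none was higher and 4 were lower (40.0%, beside 11.2% of all tested genes). The median of their mean differences to the 3 lines was -1.57, beside -0.02 over all tested genes. Among genes of epithelial junctions and keratins, 5 of 14 were higher (35.7%, beside 10.3% of all tested genes) and 3 lower (21.4%, beside 11.2%). CRB3, an apical polarity protein, was at 314, 504 and 259 CP20M in H28 and at most 6 elsewhere (gap 4.80 ± 0.270, adjusted p = 5.14e-08). CLDN4, a tight junction claudin, was at 1519, 1912 and 1363 against 38 to 199, and DSP, desmoplakin, CLDN1 and MAL2 were also higher. Of the simple epithelial keratins, KRT8 and KRT18 were lower, and KRT7 and KRT19 were not set apart. KRT8 was at 6950, 5157 and 5204 CP20M in H28 and at least 25085 elsewhere, and KRT18 at 2196, 1497 and 2124 against at least 12766. CDH1, E-cadherin, was at 0 in H28 and at no more than 5 in the other lines. Among mesenchymal genes, none of 22 was higher and 5 were lower (22.7%, beside 11.2% of all tested genes), with a median of -1.83. TWIST1 and TWIST2, transcription factors of mesenchymal cells, were at 1 CP20M or below in all 3 H28 libraries and at 119 or more elsewhere. LOX, lysyl oxidase, SPARC and ZEB2 were lower too, with gaps of -5.17, -2.33 and -0.97. VIM, vimentin, was high in all 4 lines, at 38737, 30064 and 37622 CP20M in H28 and 37517 to 63804 elsewhere.

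**Figure D2:**
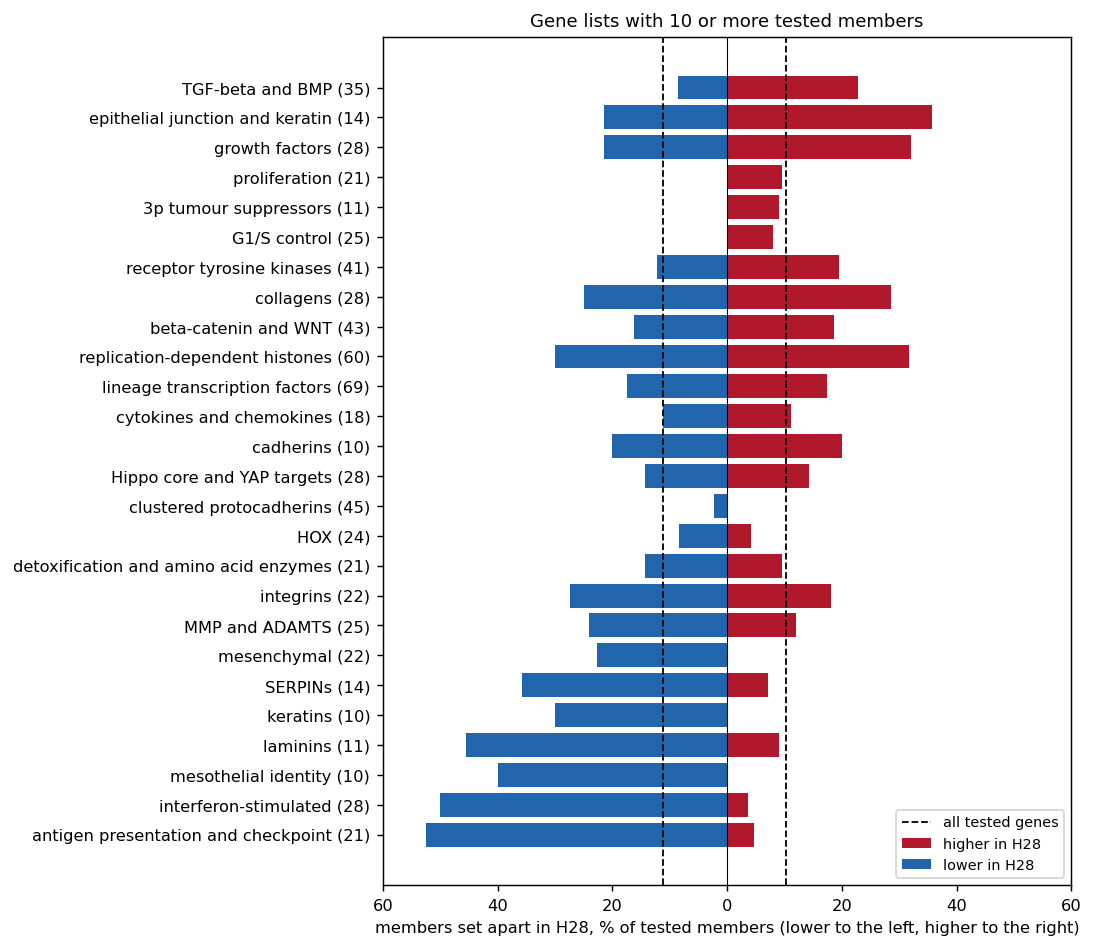
Percent of the tested members of each gene list that were set apart in H28, higher to the right in red and lower to the left in blue, for lists with 10 or more tested members (number in parentheses). Dashed lines mark the shares over all tested genes, 10.3% higher and 11.2% lower, and the interferon-stimulated and antigen presentation lists extend farthest to the lower side.

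Lineage transcription factors, of which 69 were tested, had 12 higher and 12 lower members (17.4% each way, beside 10.3% and 11.2% of all tested genes). The higher ones included PAX8 and PAX2, paired box factors of kidney, thyroid and Müllerian development. PAX8 was at 7787, 8960 and 11334 CP20M in H28, while the other libraries ranged from 18 to 2011 with a median of 318 (gap 2.83 ± 0.236, adjusted p = 1.27e-06). PAX2 was at 403, 939 and 374 CP20M against 0 to 175. The SRY-related factors SOX4 and SOX11 had gaps of 2.09 and 4.58, and SOX11 was at 1261, 987 and 969 CP20M against 3 to 49. ELF3, an epithelial ETS factor, was at 1385, 3270 and 1652 against 5 to 124, and FOXA2, LHX2, MSX2, DLX2, IRX3 and IRX5 were higher with gaps from 0.73 to 2.70. The lower factors included several of mesoderm and heart. TBX18, which marks mesothelium and epicardium in development, was at 0, 0 and 1 CP20M in H28 and at 520 to 1690 elsewhere, the largest gap of these (-5.69 ± 0.213, adjusted p = 4.39e-09). GATA6 was at 26, 22 and 35 CP20M against 232 to 2152, and FOXF1 at 31, 32 and 52 against 310 to 603. GATA2, TBX1, TBX20, EYA4, NR2F1 and NR2F2 had gaps between -2.30 and -1.28. Of 24 tested HOX genes, which specify position along the body axis, HOXD4 was higher (4.17%) and HOXB2 and HOXB4 were lower (8.33%). Both shares were below those of all tested genes (10.3% and 11.2%).

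Genes induced by interferon were more often lower than higher in H28. Interferons signal through a complex that holds STAT2 and IRF9, and their targets encode antiviral proteins and parts of the MHC class I pathway. Of 28 tested interferon-stimulated genes, 14 were lower (50%, beside 11.2%) and 1 was higher, and the median difference was -2.61. IFIT2 was at 19, 33 and 32 CP20M in H28, while the other libraries had a lowest value of 406, a median of 752 and a highest value of 3999 (gap -3.69 ± 0.295, adjusted p = 1.06e-06). IFI6 was at 10, 9 and 5 CP20M against 215 to 2592. IFIT1 was at 10, 9 and 18 CP20M against 62 to 2767, and the line nearest to H28 was MSTO-211H. HERC5 was listed at 0 in all 3 H28 libraries, with 12 CP20M as the lowest value elsewhere. ISG15, the ubiquitin-like modifier, was at 66, 63 and 90 CP20M against 192 to 1200 (gap -1.85 ± 0.479, adjusted p = 0.00556). IFIT3, MX2, IFI44, DDX58, IFIH1, USP18 and PARP9 were also lower. Among the signalling genes, STAT2 was lower, at 442, 778 and 673 CP20M against 2260 to 4027, and IRF9 had a gap of -0.68. Without H28 replicate 3, 13 members were lower and 0 higher. IRF1, at 288, 475 and 720 CP20M against 379 to 1096, was not set apart.

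Upstream sequences are shown for 2 lower members, IFIT1 and ISG15, and for OAS3, which was not set apart, because all 3 hold the core of the interferon-stimulated response element, searched as GAAA, 2 bases of any kind and GAAA. Matches on either strand are in capitals, overlapping ones as a single run, in the 250 bases before the RefSeq start (GRCh38.p14) at chr10:89392373-89392622, chr1:1013247-1013496 and chr12:112938224-112938473, plus strand, from 5′ to 3′.
IFIT1: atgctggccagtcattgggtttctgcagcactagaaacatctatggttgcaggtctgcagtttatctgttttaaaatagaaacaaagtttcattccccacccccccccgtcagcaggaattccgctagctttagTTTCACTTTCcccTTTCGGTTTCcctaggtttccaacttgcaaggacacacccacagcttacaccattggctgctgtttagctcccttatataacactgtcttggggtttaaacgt
ISG15: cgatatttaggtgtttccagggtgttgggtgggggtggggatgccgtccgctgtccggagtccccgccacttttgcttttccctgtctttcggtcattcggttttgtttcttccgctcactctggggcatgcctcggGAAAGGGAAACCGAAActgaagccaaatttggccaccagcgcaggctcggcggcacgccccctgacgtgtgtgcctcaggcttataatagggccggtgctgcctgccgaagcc
OAS3: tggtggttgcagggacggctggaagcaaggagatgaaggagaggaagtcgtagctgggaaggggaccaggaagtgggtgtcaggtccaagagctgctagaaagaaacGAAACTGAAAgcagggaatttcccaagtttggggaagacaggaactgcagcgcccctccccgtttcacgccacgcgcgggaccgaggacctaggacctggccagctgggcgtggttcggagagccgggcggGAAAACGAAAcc
Of the 28 tested members, 21 had a RefSeq promoter of 300 bases (250 before the start and 50 after), and 13 of these held the element (61.9%), beside 289 of 10546 tested protein-coding genes with such a promoter (2.74%). A match of letters says nothing about binding. The element was in 7 of 11 lower members (63.6%) and in 6 of 10 others (60%). The shares in lower and other members were thus alike in size, and no test was made.

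Antigen presentation and checkpoint genes had 11 of 21 tested members lower (52.4%, beside 11.2% of all tested genes) and 1 higher. The median difference was -1.75. PSMB8, a catalytic subunit of the immunoproteasome (ENSG00000204264, chromosome 6 from 32840717 to 32844679), was at 2, 0 and 7 CP20M in H28. The other 8 libraries had a lowest value of 545, a median of 1463 and a highest value of 2901, and the gap was -5.60 ± 0.229 (adjusted p = 6.53e-09). The adjacent genes were lower to a lesser degree. PSMB9, another immunoproteasome subunit, was at 28, 53 and 103 CP20M against 281 to 1731, TAP2 at 408, 262 and 384 against 1026 to 2292, and TAP1 at 498, 575 and 802 against 910 to 3951. PSMB9 and TAP1 overlap in the annotation. BRD2, farther along the same region, was at 4921, 5281 and 5486 beside 2638 to 4708. NLRC5, the transactivator of MHC class I genes, was at 67, 50 and 37 CP20M against 540 to 3134 (gap -3.25 ± 0.279, adjusted p = 1.83e-06). HLA-B was at 632, 598 and 925 CP20M in H28 and 2891 to 35340 elsewhere, and HLA-C, HLA-E and HLA-F were lower with gaps of -1.20, -0.92 and -0.60. HLA genes are near-identical in stretches, so that their counts are uncertain. B2M, the light chain of MHC class I, was at 3485, 4423 and 5403 CP20M against 4636 to 29675 and was not set apart. CD274 and PDCD1LG2, which encode the ligands of the checkpoint receptor PD-1, were at most 8 and 2 CP20M in H28, beside at least 35 and 83. CD74, the invariant chain of MHC class II, was higher, at 237, 374 and 467 CP20M against 11 to 114.

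**Figure D3:**
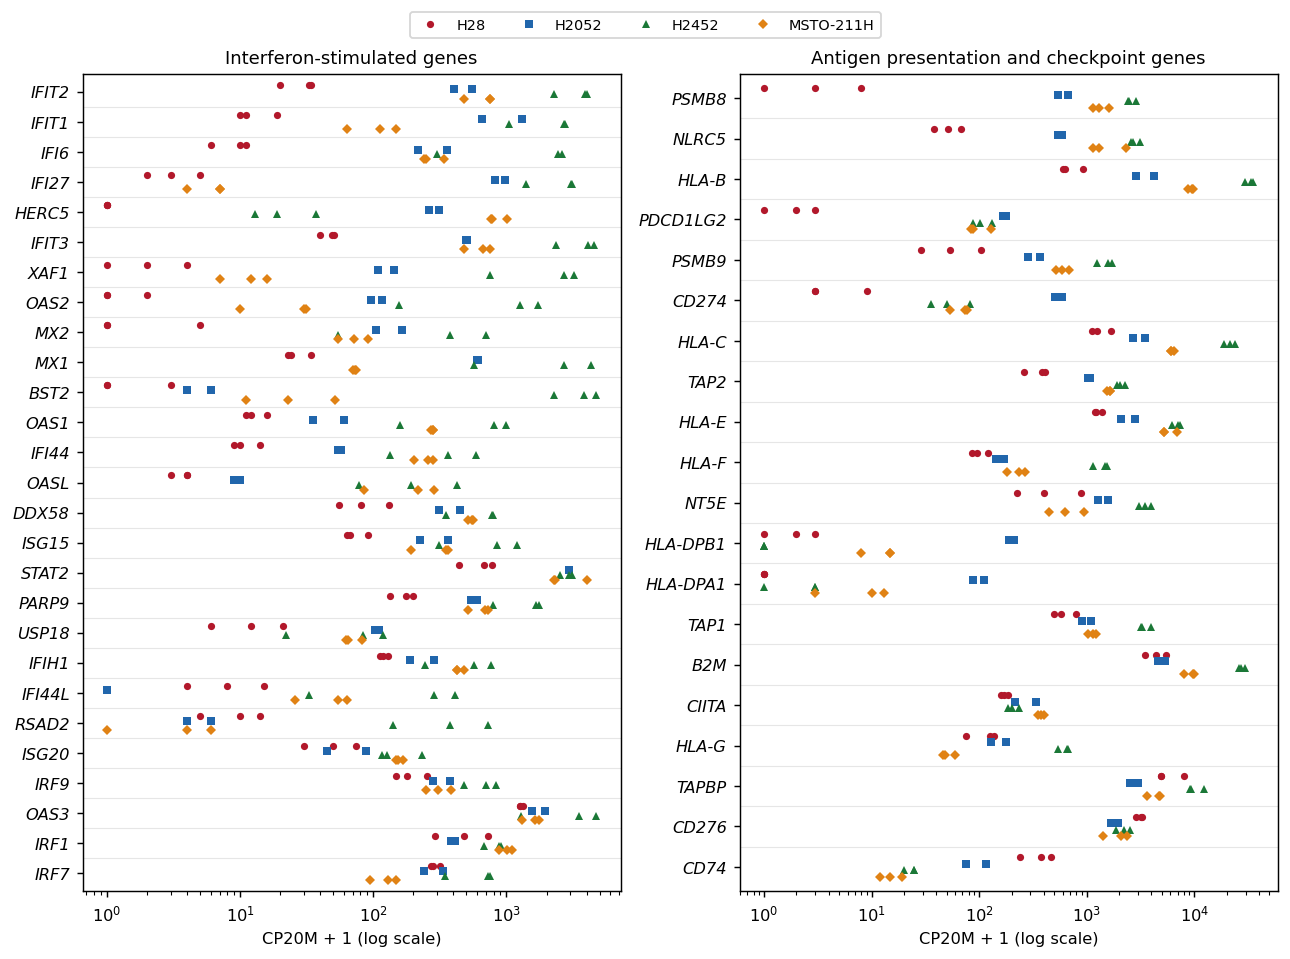
CP20M + 1 (log axis) of 27 tested interferon-stimulated genes (left) and 20 antigen presentation and checkpoint genes (right), sorted by mean difference, with 1 point for each DMSO library. Most H28 points lie at the left of their row, and CD74 at the foot of the right panel is set apart on the higher side.

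CTNNB1, which encodes beta-catenin, a component of adherens junctions and the transducer of canonical WNT signals, was nearly without transcript in H28. CTNNB1 (ENSG00000168036, chromosome 3 from 41194741 to 41260096) was at 62, 89 and 123 CP20M, while the other lines had a lowest value of 3965, a median of 7091 and a highest value of 8449. The gap was -5.37 ± 0.176 (adjusted p = 1.35e-09). Of the 4 tested genes on either side, none was set apart lower in H28. ULK4 was at 186, 174 and 185 CP20M beside 63 to 185, TRAK1 at 1622, 1589 and 1232 beside 1129 to 1743, and ZNF621 was set apart higher, at 1194, 1728 and 1406 beside 454 to 932. ZNF619 was at 56, 58 and 66 CP20M beside 47 to 239, with a median of 173.5 that lies above H28. Of the 43 tested genes of the beta-catenin and WNT list, 8 were higher (18.6%, beside 10.3% of all tested genes) and 7 lower (16.3%, beside 11.2%), with a median of 0.07. AXIN1, a scaffold of the complex that degrades beta-catenin, had a gap of 0.62, and ZNRF3, which removes WNT receptors, one of 1.42. The receptor genes FZD1, FZD5 and FZD7 were higher with gaps of 1.95, 1.32 and 1.60, whereas FZD2 and the co-receptor gene LRP5 were lower with gaps of -1.32 and -1.68. WNT10A, NKD2 and NOTUM were higher from low levels, and DKK1, WNT5A, ROR2 and PORCN were lower. AXIN2, a target of the pathway, was low in H28 (34, 49 and 36 CP20M) within the range of the other lines (6 to 176), and CTNNA1, alpha-catenin, was at 12438, 9938 and 12081 CP20M beside 8598 to 9772 and not set apart.

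Of the tumour suppressors of MPM and the genes of the G1/S transition, most were expressed in H28, and CDKN2A and CDKN2B were listed at 0. CDKN2A was at 0 in all 3 H28 libraries, as in H2052 and H2452, and at 34, 26 and 18 CP20M in MSTO-211H. CDKN2B was at 0 in all 11. MTAP, the neighbouring gene often co-deleted with them, was expressed in H28 at 1192, 1198 and 1188 CP20M and in MSTO-211H at 1274, 1816 and 1423, and was at 0 to 2 in H2052 and H2452. It did not set H28 apart. On the other side of MTAP, HACD4 (7, 25 and 32 CP20M against 92 to 835) and FOCAD (357, 332 and 303 against 758 to 2122) were lower in H28, with KLHL9 between them and MTAP at 849, 944 and 846 beside 643 to 1992. NF2, which encodes the Hippo regulator merlin, was higher, at 14775, 16708 and 13067 CP20M, beside 5738 to 7190 in H2452, 4022 to 4715 in MSTO-211H and 305 and 407 in H2052 (gap 1.19 ± 0.143, adjusted p = 2.36e-05). LATS2 was at 2270, 2690 and 1876 CP20M, between H2452 (2763 to 3847) and MSTO-211H (1309 to 1401), and was at 0 in H2052. BAP1 had a gap of 0.11 (adjusted p = 0.454) and was at 2420, 2119 and 2290 CP20M.

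CDK6 was higher in H28, at 8730, 11094 and 20128 CP20M against 2178 to 5379, with a gap of 1.37 ± 0.250 (adjusted p = 0.000572). RB1, which restrains E2F and is the target of these kinases, was at 2566, 2325 and 2841 CP20M against 553 to 1403 (gap 0.92 ± 0.152, adjusted p = 0.000276). CDK4, at 4423, 3521 and 3483 CP20M beside 2742 to 4597, and CCNE1, cyclin E1, at 178, 189 and 141 beside 72 to 231, were not set apart. CDK6 and RB1 were the 2 members set apart of 25 tested in the G1/S list, none being lower. This share of 8.0% was below the 10.3% higher among all tested genes. Of 21 proliferation genes, the replication licensing genes MCM3 and MCM6 were higher (9.52%, near the 10.3% of all tested genes). None was lower, and the median was 0.65. MKI67, at 11301, 7923 and 10717 CP20M, overlapped with the other lines (1555 to 11235). Of 11 genes of the list of 3p tumour suppressors SETD2 was higher (9.09%, near the 10.3% of all tested genes). In the Hippo list, 4 of 28 members were higher and 4 lower (14.3% each way), near the 10.3% and 11.2% of all tested genes. WWTR1, the YAP paralog TAZ, was at 9589, 8040 and 10252 CP20M against 387 to 4057, and FAT1 and LATS1 were higher. CTGF and CYR61, which are targets of YAP, had gaps of -2.16 and -0.71, and VGLL3 and TEAD3 were lower as well. YAP1, at 2740, 2584 and 3179 CP20M beside 2620 to 5634, was not set apart.

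Among receptor tyrosine kinases, 8 of 41 tested members were higher (19.5%, beside 10.3% of all tested genes) and 5 lower (12.2%, near the 11.2% of all). The higher ones included 3 fibroblast growth factor receptors. FGFR2 was at 1917, 2949 and 797 CP20M in H28 and at most 9 elsewhere (gap 6.49 ± 0.429, adjusted p = 2.42e-07). FGFR3 was at 2177, 2978 and 1761 CP20M against 14 to 155, and FGFR4 at 3855, 4096 and 4403 against 10 to 193. EGFR, at 18485, 19317 and 12652 CP20M, had a gap of 0.77, and IGF1R one of 1.34. ERBB4 and KIT varied among the H28 libraries, at 958, 3031 and 228 and at 289, 44 and 230 CP20M. DDR2, a collagen receptor of mesenchymal cells, was lower, at 22, 15 and 46 CP20M against 2576 to 7760 (gap -6.24 ± 0.263, adjusted p = 5.81e-09), as were PDGFRB, TIE1, EPHA5 and ROR2. FLT4 was the remaining higher member.

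Growth factor genes had 9 of 28 members higher (32.1%, beside 10.3% of all tested genes) and 6 lower (21.4%, beside 11.2%). Their median of -0.99 had the opposite sign to the larger count. Of the ligands of EGFR, TGFA was at 3984, 2413 and 6071 CP20M against 5 to 544, EREG at 217, 170 and 1541 against at most 5, and AREG at 109, 35 and 1061 against at most 3. VEGFA, the vascular endothelial growth factor, was at 14037, 13132 and 20030 CP20M against 644 to 2957 (gap 2.48 ± 0.248, adjusted p = 5.70e-06), while VEGFB and VEGFC were lower. PDGFB, PDGFC, PDGFD, IGF2 and EFNA5 were also higher. MDK, midkine, had the lowest gap of the list (-5.44), at 16, 32 and 52 CP20M against 1498 to 4279, and BDNF, a neurotrophin, the next lowest (-3.46), at 18, 39 and 23 against 281 to 2322. In the TGF-beta and BMP list, 8 of 35 were higher (22.9%, beside 10.3%) and 3 lower (8.57%, below the 11.2% of all tested genes). The inhibitory SMADs were higher, with SMAD6 at 5926, 5077 and 4241 CP20M against 76 to 622 and SMAD7 at 1157, 1145 and 983 against 65 to 399. Of the BMP-responsive ID genes, ID1, ID2 and ID4 were higher with gaps of 1.42, 3.25 and 3.48, and ID3 was not set apart. BMP4 and TGFBR3 were among the lower ones. Of 18 tested cytokines and chemokines, CX3CL1, fractalkine, was at 611, 703 and 703 CP20M against at most 2, and LIF was also higher. IL1B and CXCL2 were lower. These were 11.1% each way, near the 10.3% and 11.2% of all tested genes.

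Matrix and adhesion genes differed in both directions. Of 28 tested collagens, 8 were higher (28.6%, beside 10.3% of all tested genes) and 7 lower (25%, beside 11.2%), with a median of -1.34. Basement membrane and associated chains were among the higher ones. COL4A1 was at 30545, 41714 and 53761 CP20M against 868 to 10034 and COL18A1 at 54666, 58665 and 50428 against 1570 to 8872. COL7A1, the anchoring fibril collagen, was at 21069, 20287 and 52276 CP20M against 117 to 3312. COL4A5 and COL4A6 were lower, at most 115 and 3 CP20M in H28 beside at least 597 and 97, as were COL8A1 (gap -6.11) and COL12A1 (gap -1.52). Of 11 laminins, LAMA5 was higher (9.09%, near the 10.3% of all tested genes), at 25533, 25537 and 28927 CP20M. Lower laminins numbered 5 (45.5%, beside 11.2%), among them LAMA1, LAMA2, LAMA3 and LAMA4. Without H28 replicate 3, 3 laminins were lower. Of 22 integrins, ITGB3 was at 17702, 11889 and 27270 CP20M against 2 to 470 (gap 5.61 ± 0.294, adjusted p = 3.32e-08), and its partner ITGAV at 14076, 19226 and 12713 against 1603 to 7014. ITGB6 and ITGB8 were also higher, which made 4 of 22 (18.2%, beside 10.3% of all tested genes). Lower integrin genes numbered 6 (27.3%, beside 11.2%), among them ITGA5, the fibronectin receptor chain.

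Cadherins had 2 higher and 2 lower of 10, both shares above those of all tested genes (10.3% and 11.2%). CDH16, a cadherin of kidney epithelium, was at 392, 1028 and 318 CP20M against at most 3, and CDH4 and CDH13 were lower. Of 6 tested claudins, CLDN1, CLDN2 and CLDN4 were higher and CLDN11 was lower. Both claudin shares were also above the 10.3% and 11.2% of all tested genes, but rest on few genes. In the MMP and ADAMTS family, 3 of 25 were higher (12%, near the 10.3% of all tested genes), namely MMP7, ADAMTS3 and ADAMTS9. Lower members numbered 6 (24.0%, beside 11.2%). Of 14 SERPINs 1 was higher (7.14%, beside 10.3%) and 5 lower (35.7%, beside 11.2%), including SERPINH1, the collagen chaperone. IGFBP3 was higher (14.3%, beside 10.3%) and IGFBP4 and IGFBP6 were lower (28.6%, beside 11.2%) of 7 binding proteins of insulin-like growth factors. Of 10 tested keratins, KRT15 was lower beside KRT8 and KRT18 (30.0%, beside 11.2% of all tested genes). Of the clustered protocadherins, 1 of 45 was lower (2.22%, below the 11.2% of all tested genes), and the mean difference was below 0 for all 45. They are neighbours in clusters, so that these signs may not be separate measurements. Of 21 enzymes of detoxification and amino acid metabolism, ALDH1A1 and AKR1C2 were higher and GSTP1, ARG2 and KYNU lower. These shares (9.52% and 14.3%) were near those of all tested genes (10.3% and 11.2%). GSTP1 was at 581, 728 and 690 CP20M against 4556 to 6820. Of 31 cancer-testis antigens in the matrix, 2 were tested and none was set apart. None of the 4 tested markers of other cell types was set apart.

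Replication-dependent histone genes, a set chosen after their values were seen, showed a mosaic along the chromosome. These intronless genes lie in clusters and are transcribed in S phase. Of 60 tested, 19 were higher (31.7%, beside 10.3% of all tested genes), 18 lower (30.0%, beside 11.2%) and 23 not set apart. Of the 18 lower genes, 15 were at 25 CP20M or below in all H28 libraries. HIST1H1B, a linker histone, was at 0, 0 and 7 CP20M in H28 and at 1667 to 4777 elsewhere (gap -7.63 ± 0.359, adjusted p = 1.42e-08), and HIST1H3G was at 1, 0 and 6 against 835 to 2960. Other members of the same cluster on chromosome 6 were higher, with HIST1H1C at 9464, 6980 and 9883 CP20M against 1973 to 6402 and HIST1H4C at 3496, 3094 and 3781 against 565 to 1924. In the HIST1 cluster, 14 genes were higher and 14 lower, and 4 pairs of neighbours among its 47 tested genes with a known position had opposite calls. The summed level of the 60 genes was 78545 to 104170 CP20M in H28 and 36445 to 106035 in the other libraries. The highest of the others was replicate 3 of MSTO-211H, and the next was replicate 3 of H2452 at 64918. Without H28 replicate 3, 14 were higher and 17 lower. Paralogous histone genes are alike in sequence, and reads that fit several of them could be split or dropped in counting.

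**Figure D4:**
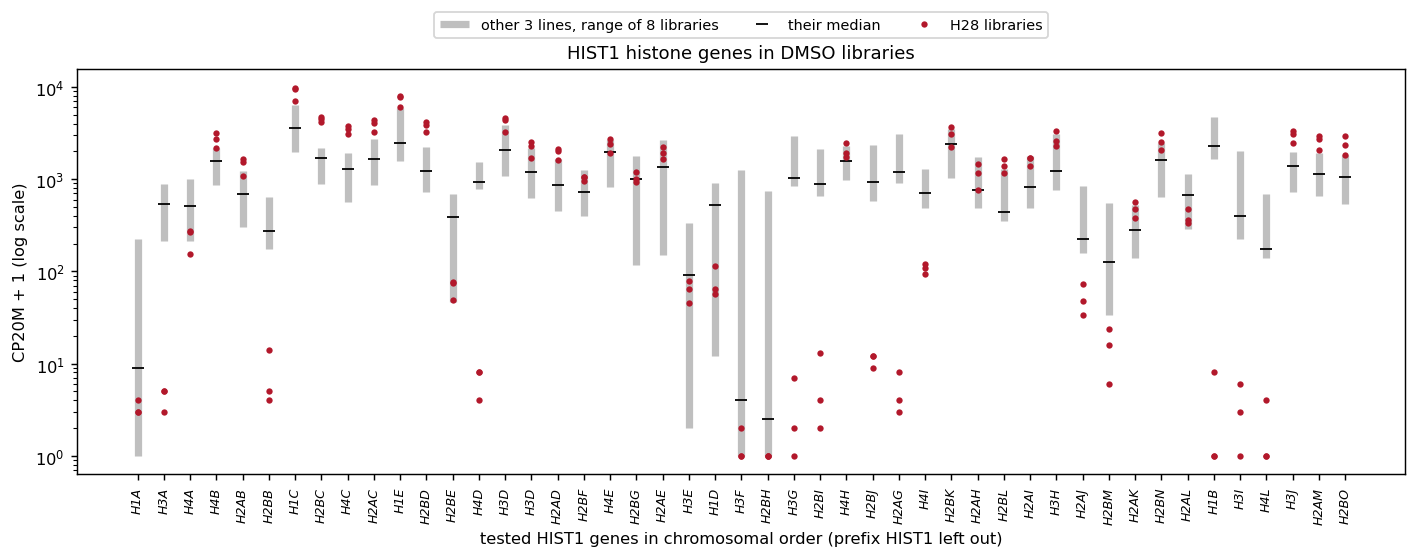
CP20M + 1 (log axis) of the tested HIST1 histone genes with a known position in chromosomal order, with the 3 H28 DMSO libraries in red and the range and median of the other 8 in grey and black. Genes far below the range of the other lines in H28, such as HIST1H2BB, occur in the same stretches as genes above it, such as HIST1H1C.

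Presence and absence were counted for protein-coding genes without a test. There were 53 genes at 100 CP20M or more in all 8 other libraries and at 10 or below in all H28 libraries. There were 59 at 100 or more in all H28 libraries and at 10 or below in all others. The genes absent in H28 included TWIST2, at 0 in all 3 libraries, FLI1, an ETS factor, TIE1, RAMP1, EVC2, ICAM5, GALC and several zinc finger genes (ZNF229, ZNF256, ZNF772 and ZNF773). Those present in H28 and not in the other 3 sensitive lines included SST, somatostatin, at 798, 1704 and 454 CP20M, SHH, a hedgehog ligand, at 428, 333 and 1247, and SYK, a kinase of blood cells, at 111, 113 and 142. SST and SYK were listed at 0 in all 8 other libraries. Of the absent genes, 38 were at 100 or more in all 4 control libraries of MPP89 and MeT-5A, and 0 were at 10 or below in all of them. Of the present genes, 26 were at 10 or below in all 4, and 12 were at 100 or more in at least 1 of them. By position, HIST1H1B, HIST1H3I and HIST1H4L formed the 1 run of neighbouring absent genes (chromosome 6 from 27866792 to 27873534). Neighbouring present genes were TIMD4 and HAVCR1 on chromosome 5, AMBP and KIF12 on chromosome 9, and DSCAML1 and FXYD2, which overlap, on chromosome 11.

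Along the chromosomes, windows of 25 neighbouring tested protein-coding genes had a smallest median difference to the 3 lines between -0.59 and 0.54 in the central 95% of 12658 windows. The highest value, 1.37, was on chromosome 2 from 231781671 to 236168386, where 7 of the 25 genes were UGT1A genes, which share exons and hence reads. Next came the window from SOX4 to HIST1H2AC on chromosome 6 (0.97) and that from STK26 to ARHGEF6 on chromosome X (0.93). The lowest values were -1.09 on chromosome 1 from STPG1 to SH3BGRL3, where 15 of 25 genes were lower, and -1.05 on chromosome 18 from ATP8B1 to DSEL, where 13 were lower. By chromosome, the share of lower genes was largest on chromosome 18 (51 of 194, 26.3%) and chromosome 11 (151 of 753, 20.1%), and the share of higher genes was largest on chromosome 9 (98 of 536, 18.3%). Of all 13231 tested protein-coding genes, 1507 were lower and 1282 higher. The shares over all tested genes of any kind were 11.2% lower and 10.3% higher. Copy number was not measured here.

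The contrasts were fitted again on the 11 palbociclib libraries of the same lines, which the comparison without drug had not used. The libraries come from the same lines and experiments, so that they repeat the measurement and do not add lines. Of 1587 higher genes that were tested there, 1316 were set apart higher again (82.9%, beside 13.5% of all tested genes), and of 1759 lower genes 1309 were lower again (74.4%, beside 11.3%). None of either group was set apart in the opposite direction. The median of the mean differences of the higher genes was 1.87 with palbociclib and 1.77 with DMSO, and that of the lower genes -1.82 and -1.92. All 30 leading genes were set apart again. HAVCR1 was at 13364, 13850 and 10262 CP20M in the palbociclib libraries of H28 and at 8922 in its washout library, and CTNNB1 at 57, 58 and 82 and at 102. Some members were set apart in the DMSO libraries and not with palbociclib, among them VEGFA, CD274, PSMB9 and TAP1. Of 14 lower interferon-stimulated genes 10 were lower again, of 11 lower antigen presentation genes 7, and of 6 lower integrins 2. Whether the difference between lines itself changed with the drug was not tested.

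**Figure D5:**
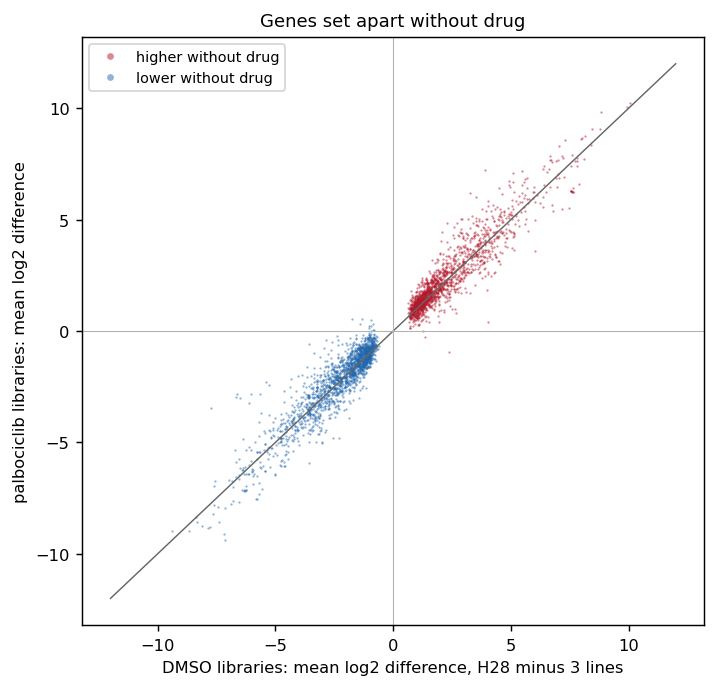
Mean log2 difference between H28 and the other 3 lines in the palbociclib libraries (vertical) against that in the DMSO libraries (horizontal), for genes set apart without drug and tested in both, with the line of equal values. Higher genes (red, median 1.87 with palbociclib) and lower genes (blue, median -1.82) lie along that line, and few of them cross 0.

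Levels in the resistant lines were also read for these genes. The genes had been chosen for H28 being higher or lower than each other sensitive line. The share over all tested genes was not computed, so that the percentages have no baseline. In 1128 of the 1680 higher genes (67.1%) all H28 libraries were also above the 4 control libraries of MPP89 and MeT-5A, of which 1 of MeT-5A was untreated, and in 1411 of the 1825 lower genes (77.3%) they were also below them. Among the leading genes, EMP1 (63, 19 and 74 CP20M in H28, 56 and 73 in MeT-5A) and CDH13 (0, 0 and 15 in H28, 8 in the DMSO library of MeT-5A) overlapped with these libraries. VCAN was at 2209 and 2161 CP20M in MPP89, below H28. SALL1 and HAVCR1 were at no more than 5 CP20M in all 4.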

How the data were processed

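RNA-seq values of 11 DMSO libraries of the 4 sensitive lines were used, with the 11 palbociclib libraries of these lines, the H28 washout library and the controls of MPP89 and MeT-5A as further levels. The authors trimmed reads with Trimmomatic 0.36, mapped them to GRCh38 with STAR 2.5.3, counted them per gene with HTSeq 0.9.1 and scaled them to 20000000 per library. The deposited values are a normalized score (CP20M) rounded up, not counts, so no count model was used, although the authors used DESeq2. Column totals were 20007662 to 20019921. Depth was estimated for 6 of the 11 libraries from the whole numbers that low values skip, and a read was worth 1.36 CP20M at the lowest estimated depth. The other 5 skip too few.

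Genes with 100 CP20M in at least 1 of the 11 libraries (16288 of 58302) were fitted as log2(CP20M + 10) with limma 3.58.1 (lmFit, eBayes with trend, R 4.3.3), with a mean for each line. A gene was called at FDR under 0.05 and fold above 1.5 in each of 3 contrasts. The function was tested on simulated data. No 2 libraries of a line had the same value at more than 2.78% of tested genes.

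Named genes were the 15 higher and 15 lower protein-coding genes with the largest gaps and libraries that do not overlap, members of gene lists, genes of neighbouring absent or present genes, 12 genes of MPM and the cell cycle, and the 2 highest and 2 lowest gaps outside protein-coding genes. Other genes named, such as neighbours, examples of absent and present genes and members that were not set apart, were chosen after their values were seen. The members and the lists were chosen with earlier results of these data known. Positions are from GENCODE 44, which held 57532 of the gene IDs and is another release than the authors' annotation. Promoters are from RefSeq (GRCh38.p14) and were matched by Ensembl ID or symbol. Alternatives were a replicate block, the day as a covariate, pseudocounts of 1 and 50, other filters and scalings, eBayes without trend, a fit on all 33 libraries, and leaving out each library and each other line. Figures were drawn with matplotlib 3.10.9. Some of the genes and lists that these rules name are not reported here.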

Additional observations from a re-analysis of the deposited data

How the results depend on the processing

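The counts and gaps were recomputed under 24 settings. Of 330 recomputed counts and medians of gaps, 318 stayed within 1.5 times of their value, judged on numbers of genes, or, for gaps, within the median standard error of the 15 genes. The median gap of the 15 higher genes, 7.89, became 10.06 with pseudocount 1 and 5.95 with pseudocount 50, and that of the 15 lower genes, -6.79, became -8.95 and -5.20. With a line left out a gene needs 2 calls in place of 3. Without H2452 there were then 2886 lower genes, with 13.1% of tested genes lower in the DMSO and the palbociclib libraries (8.04% with all lines), 204 lower list members and a median gap of -7.25 for the 15 lower genes. Without MSTO-211H 13.0% of tested genes were higher in both (8.08% with all lines), with 196 lower list members and again a median gap of -7.25. Of 1056 recomputed gaps of single named genes, 2 changed sign and both concern genes between lines, namely LATS2 without H2452 (0.74) and MTAP without MSTO-211H (6.82). Leaving out 1 library at a time gave 1505 to 1680 higher and 1686 to 1836 lower genes, and a median gap of 7.70 to 7.99 for the 15 higher and of -7.23 to -6.59 for the 15 lower genes. The value of -7.23 was reached without H28 replicate 3, and the cause was not tested. The no-filter setting, which tests more genes, gave 2382 higher and 1956 lower genes, and 4.37% and 3.30% of the genes tested were set apart higher and lower in both the DMSO and the palbociclib libraries, and other scalings moved the median difference of all genes by no more than 0.08.

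The replicate number as a block gave 1704 higher and 1839 lower genes. Same-numbered libraries of H28 and other lines had correlations of their deviations from -0.05 to 0.19 in 8 pairs, of which 4 were over 0.1. Differently numbered libraries had correlations from -0.24 to 0.16, and those among replicates 1 and 2 were all negative. Deviations from the mean of a line sum to 0, so that the signs are partly fixed by each other. With the 2 libraries of H2052 they are opposite by construction (0.19 and -0.19 for H28 replicate 1). Whether same-numbered libraries of different lines share an experiment was not tested. The main fit held no block, and the block changed no call among the named genes recomputed. The precision is limited by 2 or 3 libraries a line, by unknown depth in 5 libraries and by low values, where 1 read is worth up to 1.36 CP20M in the libraries with an estimate.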
